A study of Mus musculus with 96 samples.

Results

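Loxl4, Cyp17a1, Ddc, Clpx, Crybg2, Gm35986 and B930025P03Rik, 7 of the 25095 genes in the tables, were followed across hepatocytes and liver macrophages of mice on an obesogenic diet. They were chosen from the hepatocyte libraries themselves, for a changed daily pattern or a strong rise after deletion of both REV-ERBs, with no numeric threshold. The RevDKO against Control values of hepatocytes are therefore given as a description without a test. The data were RNA-Seq profiles of hepatocytes and liver macrophages, taken at ZT4 and ZT10 in the light phase and at ZT16 and ZT22 in the dark phase (ZT, zeitgeber time, counts hours from the onset of light). Each of 32 groups of cell type, genotype and time held 3 libraries, 96 in all. The animals were male C57BL/6J mice with floxed alleles, fed a high-fat, high-sucrose diet for 4 weeks. Control mice received AAV-TBG-GFP. In the other genotypes AAV-TBG-CRE deleted, under the hepatocyte-directed TBG promoter, both REV-ERB genes (RevDKO, labelled ReverbhDKO), both together with Scap (RevScapTKO, labelled Reverb/ScaphTKO), or Scap alone (ScapKO, labelled ScaphKO). The macrophages of all genotypes were not the target of the virus.

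REV-ERBα and REV-ERBβ are nuclear receptors that repress transcription from elements ending in a GGTCA core, among them those of Arntl (Bmal1) and Npas2, and so form a negative arm of the circadian clock. Their own expression oscillates over the day in liver, so that a repressed gene reaches its high point when the receptors are scarce. SCAP escorts the SREBP transcription factors to the Golgi for activation, and without it SREBP-driven lipid and sterol synthesis falls. The comparison of RevScapTKO with RevDKO asks which expression changes after REV-ERB loss also need SCAP.

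The sequence in front of the transcription start was read for 6 of the 7 genes from the RefSeq promoter windows of 250 bases before to 50 bases after the start (build GRCm38.p6), and each window was placed on mm9 by exact match. Of the 32851 windows in the table, 0.216% held the letters AANT followed directly by GGGTCA on either strand and 0.219% held AANT followed by AGGTCA, N being any base. Both are forms of the element a single REV-ERB or ROR molecule binds. Ddc held the first form with its first base 9 bases before the start at 11798147. The window of its other start, at 11790411, did not hold it. Arntl, the textbook REV-ERB target, held the second form with its first base 27 bases after the start. The Ddc upstream sequence (mm9 chr11:11798147-11798397, minus strand, ending at the first transcribed base) and 30 bases of Arntl (mm9 chr7:120351042-120351071, plus strand) are shown with the element in capitals, and 250 bases in front of Loxl4 (mm9 chr19:42687297-42687546, minus strand), Clpx (mm9 chr9:65141817-65142066, plus strand) and Gm35986 (mm9 chr3:129234916-129235165, minus strand) stand beside them for comparison, the AGGTCA of Gm35986 in capitals.
Ddc: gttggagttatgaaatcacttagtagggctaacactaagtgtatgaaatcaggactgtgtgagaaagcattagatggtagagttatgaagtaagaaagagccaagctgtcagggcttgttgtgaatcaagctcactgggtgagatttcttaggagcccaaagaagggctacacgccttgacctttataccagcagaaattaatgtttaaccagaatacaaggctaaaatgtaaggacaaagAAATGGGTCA
Arntl: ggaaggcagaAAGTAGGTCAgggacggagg
Loxl4: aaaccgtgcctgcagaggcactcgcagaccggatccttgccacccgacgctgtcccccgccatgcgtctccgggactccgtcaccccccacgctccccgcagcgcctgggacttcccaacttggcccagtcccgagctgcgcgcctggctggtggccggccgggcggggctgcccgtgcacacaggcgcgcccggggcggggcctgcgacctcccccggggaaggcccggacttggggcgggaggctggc
Clpx: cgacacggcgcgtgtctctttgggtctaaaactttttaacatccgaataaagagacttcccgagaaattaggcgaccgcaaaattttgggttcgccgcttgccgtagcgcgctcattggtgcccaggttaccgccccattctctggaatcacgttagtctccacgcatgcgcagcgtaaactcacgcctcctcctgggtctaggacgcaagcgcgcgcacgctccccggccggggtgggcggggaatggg
Gm35986: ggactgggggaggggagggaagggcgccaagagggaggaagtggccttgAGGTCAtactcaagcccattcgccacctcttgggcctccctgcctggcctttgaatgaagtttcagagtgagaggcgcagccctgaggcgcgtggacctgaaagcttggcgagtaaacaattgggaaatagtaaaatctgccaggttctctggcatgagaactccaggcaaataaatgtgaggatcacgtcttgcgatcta

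The nuclear receptor core AGGTCA, which is part of the second form, was found on either strand of 16.3% of all windows and in those of Ddc, Crybg2 and Gm35986. The windows of the members held no CACGTG (the E-box that BMAL1 and CLOCK bind, in 7.15% of windows), no pair of AGGTCA in tandem with NN between them (0.00913%) and no TCACNCCAC (the core of a sterol regulatory element, 1.24%). A match of letters is a description of the window and not a binding site, and its absence says nothing about sequence elsewhere.

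Expression was given in RPKTM, a value per transcript length and library size equal to 10 times the RPKM, quantile normalized within each table. All 7 genes passed the filter on low values in the hepatocyte table (over 5 RPKTM in at least 3 libraries), 6 did in the macrophage table, and the sequencing depth behind a value is unknown. Neither Nr1d1 nor Nr1d2, which encode the REV-ERBs, was lower in hepatocytes labelled RevDKO, and Nr1d1 was higher by 1.55 on log2(RPKTM + 1). Scap was lower in RevScapTKO than in RevDKO, at -1.40. These values cover the whole transcript and not the deleted part alone, so that they do not check the REV-ERB label, and genotype names are used here as the labels give them. Summed over 12 macrophage markers, the hepatocyte libraries read a median of 957 RPKTM (range 262 to 3445) in Control, 1186 (455 to 2644) in RevDKO and 3167 (1034 to 6690) in RevScapTKO. In the ScapKO table both ZT22 replicate 2 libraries stood apart, and 3 libraries of the macrophage table (Control ZT16 and ZT22 replicate 1 and RevScapTKO ZT22 replicate 3) read 802616 to 1606981 RPKTM for the hepatocyte gene Alb against 15656 to 73347 in the other 33. Nothing in the labels says whether the 3 libraries of a group came from separate mice, so that the tests measure the spread between libraries. In bulk RNA, fewer cells of a type and less RNA per cell cannot be told apart.

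Loxl4 (mm9 chromosome 19, 42666769 to 42687296, minus strand) encodes a lysyl oxidase-like enzyme that cross-links collagen and elastin. It was low and strongly rhythmic in Control hepatocytes and high at every time of day in RevDKO and RevScapTKO. In Control it read 38.6, 15 and 27.8 RPKTM at ZT4, 14.4, 10.1 and 11.1 at ZT10, 13.6, 37.4 and 53.5 at ZT16, and 159, 109 and 118 at ZT22. In RevDKO it read 667, 719 and 548 at ZT4, 885, 617 and 676 at ZT10, 705, 616 and 798 at ZT16, and 892, 714 and 686 at ZT22. In RevScapTKO it read 731, 271 and 539 at ZT4, 888, 830.0 and 753 at ZT10, 621, 571 and 610.1 at ZT16, and 493, 591 and 551 at ZT22. The lowest RevDKO and RevScapTKO libraries lay above the highest Control library, so that the 12 libraries of each deletion did not overlap with those of Control. On log2(RPKTM + 1), the peak-to-trough amplitude of a fitted 24 h curve was 3.34 in Control (SE 0.33, peak at ZT21.7), 0.16 in RevDKO and 0.69 in RevScapTKO (SE 0.33 in each).

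Cyp17a1 (chromosome 19, 46741655 to 46747490, minus strand), the steroid 17-hydroxylase and lyase on the path to sex steroids, was raised in RevDKO and lay between Control and RevDKO in RevScapTKO. In Control hepatocytes it read 55.6, 39.2 and 13.5 RPKTM at ZT4, 83.7, 183 and 38.7 at ZT10, 43.5, 152 and 178 at ZT16, and 113, 128 and 75.0 at ZT22. In RevDKO it read 338, 390.4 and 375 at ZT4, 431, 643 and 550.2 at ZT10, 796, 680.3 and 908 at ZT16, and 863, 1711 and 803 at ZT22. In RevScapTKO it read 128, 165 and 31.6 at ZT4, 277, 341 and 356 at ZT10, 305, 414 and 108 at ZT16, and 512, 73.4 and 359 at ZT22. Every RevDKO library was above every Control library, while the RevScapTKO libraries ran from within the Control range to within the RevDKO range. The fitted amplitude was 1.76 in Control, 1.48 in RevDKO and 1.504 in RevScapTKO (SE 0.63 in each), differences smaller than the SE.

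Ddc (chromosome 11, 11714104 to 11798147, minus strand) encodes aromatic L-amino acid decarboxylase, which makes dopamine and serotonin from their amino acid precursors. Its Control trough at ZT10 was missing in both genotypes without the REV-ERBs. In Control it read 176, 119 and 115 RPKTM at ZT4, 65.7, 59.3 and 72.2 at ZT10, 173, 167 and 240.0 at ZT16, and 226, 234 and 237 at ZT22. In RevDKO it read 271, 213 and 279.5 at ZT4, 271, 274 and 256 at ZT10, 228, 289.5 and 223 at ZT16, and 213, 202 and 219.5 at ZT22. In RevScapTKO it read 201, 255 and 129.7 at ZT4, 204, 223 and 187 at ZT10, 245, 169 and 158 at ZT16, and 176, 172 and 157 at ZT22. At ZT22 the 3 Control libraries were above all RevDKO and RevScapTKO libraries, and at ZT10 they were below all of them. The amplitude was 1.88 in Control (SE 0.20, peak at ZT21.0), 0.34 in RevDKO and 0.28 in RevScapTKO. The transcript 1700042O10Rik overlaps Ddc on the opposite strand over 17199 bases, and whether reads were counted by strand is not given in the sources used here, so that reads in the overlap could belong to either. As a description, the day mean of 1700042O10Rik on log2(RPKTM + 1) was above Control by 0.95 in RevDKO and by 0.59 in RevScapTKO (SE 0.24 in each).

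Clpx (chromosome 9, 65142067 to 65178465, plus strand) encodes the unfoldase subunit of the mitochondrial ClpXP protease, which also acts on the first enzyme of heme synthesis. Like Ddc, it had a Control trough at ZT10 that was absent from RevDKO and RevScapTKO. In Control it read 818, 542 and 344 RPKTM at ZT4, 237, 228 and 242 at ZT10, 524, 564 and 646 at ZT16, and 905, 858 and 838 at ZT22. In RevDKO it read 951, 1205 and 1148 at ZT4, 1035, 1307 and 1011 at ZT10, 635, 865 and 869 at ZT16, and 768, 809.7 and 1005 at ZT22. In RevScapTKO it read 1027, 949 and 939 at ZT4, 1123, 517 and 896 at ZT10, 849, 665 and 831 at ZT16, and 857, 403 and 901 at ZT22. The Control libraries lay below all others at ZT4 and ZT10, below RevScapTKO at ZT16, and overlapped with both at ZT22. The amplitude was 1.88 in Control (SE 0.26, peak at ZT21.8), 0.62 in RevDKO and 0.40 in RevScapTKO.

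Crybg2 and Gm35986 were moved in time rather than flattened or raised, so that neither word of the working name, blunted or derepressed, described them. Crybg2 (chromosome 4, 133624367 to 133648419, plus strand) encodes a protein with crystallin-type domains. In Control it was highest at ZT10, at 27.3, 19.2 and 11.7 RPKTM, which was the time of its lowest values in RevDKO, at 1.40, 0.682 and 2.90. At ZT22 it read 2.44, 6.17 and 7.45 in Control and 9.81, 9.96 and 7.87 in RevDKO. The fitted peak lay at ZT11.6 in Control and ZT21.0 in RevDKO, with amplitudes of 1.875 and 2.10 (SE 0.43). In RevScapTKO all 12 libraries read between 6.80 and 29.6, the amplitude was 0.69, and the mean was 16.3 RPKTM ± 5.53 (SD, n = 12) against 10 ± 7.20 in Control and 6.23 ± 3.57 in RevDKO.

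Gm35986 (chromosome 3, 129230385 to 129234915, minus strand) is a noncoding RNA whose transcript measured here starts 389 bases from Elovl6 on the opposite strand. A longer transcript of it starts at 129235306, beside the Elovl6 start at 129235304, and the bases printed above for Gm35986 lie within its span. Elovl6 is a fatty acid elongase and an SREBP target. At ZT10 the noncoding RNA read 7.42, 10.8 and 7.63 RPKTM in Control and 0, 1.21 and 2.0 in RevDKO, and at ZT22 it read 0.705, 1.17 and 1.78 in Control and 5.85, 13.6 and 4.07 in RevDKO. The peak moved from ZT12.1 in Control to ZT18.8 in RevDKO, and the 12 RevScapTKO libraries lay between 0 and 1.64. Elovl6 read 641 to 1154 RPKTM at ZT10 and 181 to 427 at ZT22 in Control, 129 to 249 and 680 to 1267 in RevDKO, and 14.3 to 233 over all times in RevScapTKO. Over the 12 group means of the hepatocyte table the correlation of the pair was 0.926 (Pearson), and these points share their libraries. They include the Control and RevDKO values that chose Gm35986, so that the correlation is a description.

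B930025P03Rik (chromosome 8, 10870422 to 10882454, minus strand) is a noncoding RNA. It was low in Control hepatocytes apart from ZT4, where the libraries read 5.01, 14.9 and 68.0 RPKTM, and the other 9 Control libraries read 0 to 8.97. In RevDKO it read 205, 83.2 and 216 at ZT4 and 27 to 138 at the other times. In RevScapTKO it read 5.43 to 178, with a mean of 71.3 ± 43.5 (SD, n = 12) against 9.99 ± 18.7 in Control and 87.8 ± 63.6 in RevDKO. Its amplitude was 2.77 in Control and 1.94 in RevDKO (SE 0.74), with the peak at ZT5.4 and ZT5.5.

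**Figure D1:**
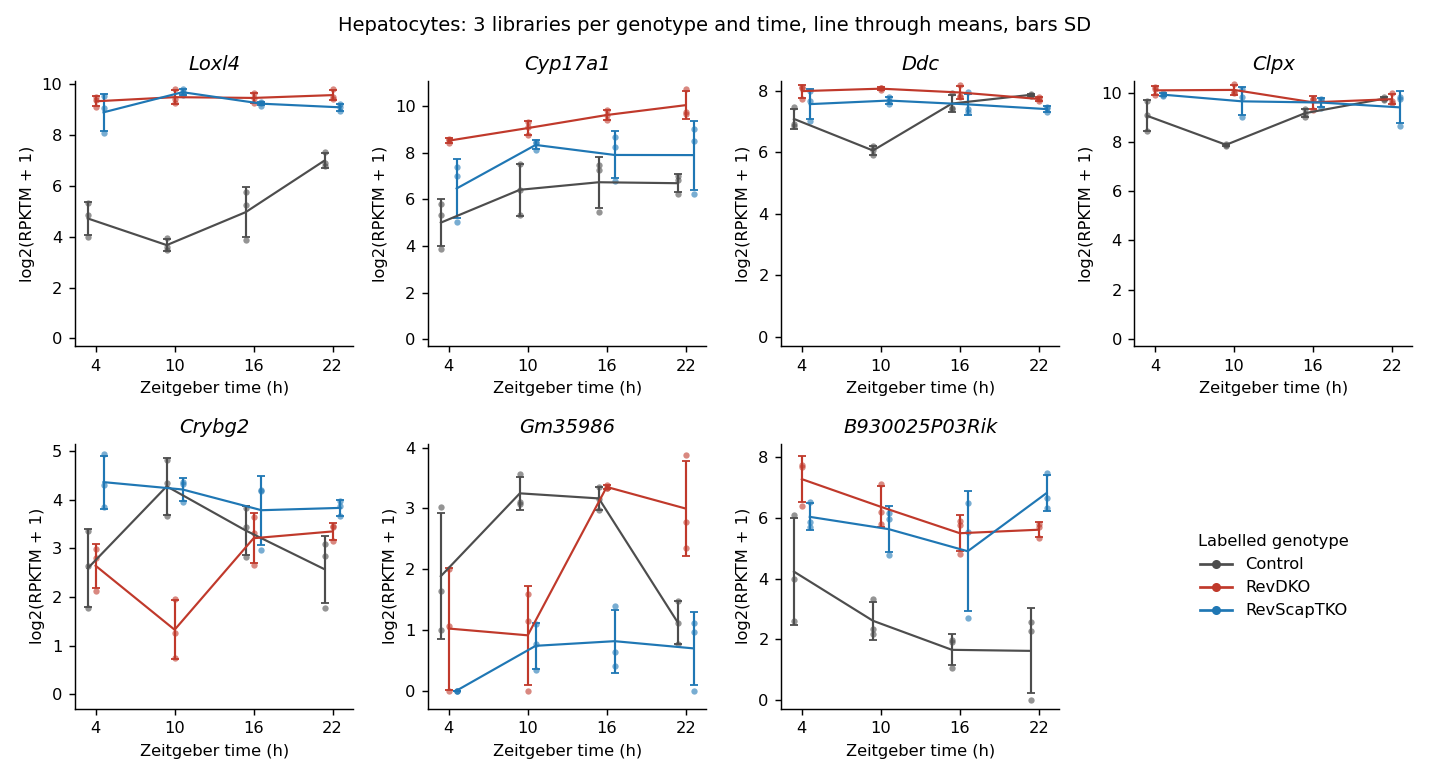
Hepatocyte level of each gene, as log2(RPKTM + 1), against zeitgeber time in hours, with 3 libraries per genotype and time as points, a line through the means and SD bars. The means of Loxl4 and B930025P03Rik are higher at all times in RevDKO and RevScapTKO than in Control, Ddc and Clpx lose their trough at ZT10, and Crybg2 and Gm35986 have their RevDKO low point where Control is high.

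Side by side, and with no test since these values chose the genes, the difference between RevDKO and Control in the mean over the day was 4.37 on log2(RPKTM + 1) for Loxl4, 3.67 for B930025P03Rik, 3.10 for Cyp17a1, 0.92 for Clpx and 0.78 for Ddc. It was -0.57 for Crybg2 and -0.28 for Gm35986. Over all 13326 genes tested, 4.43% differed in this comparison (limma with Benjamini-Hochberg adjustment, threshold 0.05), 2% being higher and 2.43% lower in RevDKO, and 0.203% changed their 24 h pattern, 0.158% towards a smaller amplitude. For Loxl4 and Cyp17a1, and for 0.158% of all genes, the lowest of the 12 RevDKO libraries exceeded the highest of the 12 Control libraries.

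Between RevScapTKO and RevDKO hepatocytes the mean over the day differed for 4 of the 7 genes, against a background of 26.2% of all genes, 13.5% higher and 12.7% lower in RevScapTKO. This comparison shares the RevDKO libraries with the choice of the genes. Cyp17a1 fell by 1.66 (SE 0.31, limma adjusted p = 0.000257), Gm35986 fell by 1.51 (SE 0.26, adjusted p = 8.82e-05) and Ddc fell by 0.38 (SE 0.10, adjusted p = 0.00616). Crybg2 rose by 1.415 (SE 0.22, limma adjusted p = 1.49e-05). Gm35986 passed the filter on low values through Control and RevDKO alone, with no RevScapTKO library above 1.64 RPKTM, so that its call is no support. The size for low genes follows the pseudocount, and with 10 and 0.1 in place of 1 it was -0.44 and -2.51 for Gm35986 and, with 10, 0.70 for Crybg2. For the other three the 95% interval of the difference ran from -0.57 to 0.10 for Loxl4, from -0.52 to 0.02 for Clpx and from -1.09 to 0.41 for B930025P03Rik, with limma adjusted p of 0.303, 0.172 and 0.524. The rise of Loxl4 and B930025P03Rik in RevDKO was among the values that chose the genes, so that it gives no scale for these bounds.

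Markers of other cells moved with the same comparison. In RevScapTKO against RevDKO hepatocytes 12 of 12 macrophage markers, 4 of 5 endothelial markers and 5 of 5 stellate cell markers were higher, with median differences of 1.04, 0.60 and 1.06. Against Control RevScapTKO had 12 of 12, 5 of 5 and 5 of 5 higher, while RevDKO against Control had 0 in each list called by limma and 0, 0 and 2 at an unadjusted p under 0.05. The 1 cholangiocyte marker that could be tested, Sox9, was higher in RevDKO (1.02) and RevScapTKO (1.30) than in Control. With the mean level of the macrophage markers as a covariate, 2 of the 7 genes were called, Crybg2 (1.38, adjusted p = 0.00521) and Gm35986 (-1.28, adjusted p = 0.0486), while Cyp17a1 had -1.22 (adjusted p = 0.149) and Ddc -0.28 (adjusted p = 0.412) in that limma fit. The covariate moves with the genotype, and its part in the 2 lost calls was not tested.

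Against Control, all 7 genes differed in RevScapTKO hepatocytes, where 35.9% of all genes did, 17.3% higher and 18.7% lower. The Control libraries are shared with the choice of the genes, so that the count describes them. Loxl4 was higher by 4.13 (limma adjusted p = 7.83e-19), B930025P03Rik by 3.33 (3.22e-08), Cyp17a1 by 1.44 (0.000672), Crybg2 by 0.85 (0.00289), Clpx by 0.68 (0.000212) and Ddc by 0.40 (0.00252), and Gm35986 was lower, at -1.79 (4.22e-06). With pseudocounts of 10 and 0.1 the size ran from -0.50 to -3.23 for Gm35986, and with a pseudocount of 10 it was 0.44 for Crybg2 and 2.09 for B930025P03Rik. Since no RevScapTKO library met the filter on low values for Gm35986, its call is no support here either. The 12 RevScapTKO libraries lay above the 12 Control libraries for Loxl4 alone among the 7, and for 0.225% of all genes. With the macrophage marker covariate Crybg2 was no longer called (0.81, limma adjusted p = 0.136).

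**Figure D2:**
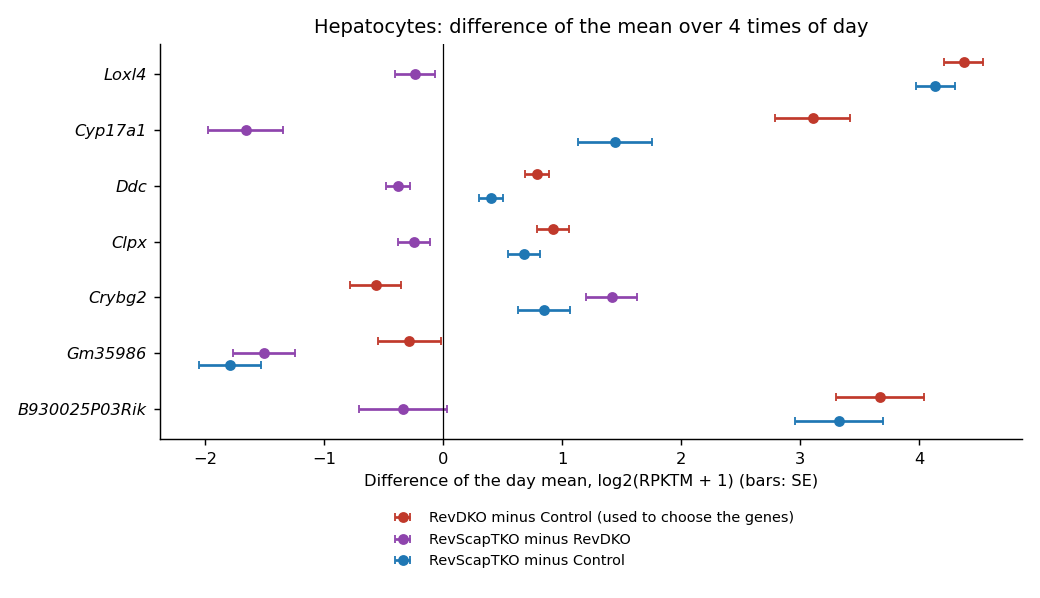
Difference of the mean over 4 times of day between hepatocyte genotypes, on log2(RPKTM + 1), as points with SE bars, for each gene. The RevDKO minus Control points chose the genes. Cyp17a1 lies between, 3.10 above Control in RevDKO and 1.44 in RevScapTKO, and Crybg2 changes from -0.57 to 0.85.

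No 24 h pattern was called for the 7 genes in RevScapTKO hepatocytes, where limma called 0.683% of all genes, and 0 of the 7 had an unadjusted p under 0.05. JTK_CYCLE, a rank test for rhythms with an exact null distribution and here with a minimum of 1.5-fold between the highest and lowest time, called Loxl4, at a p adjusted over the patterns tried of 0.0498, and of 0.00103 with the series entered 2 times. In the latter setting Clpx (0.0186) and Gm35986 (0.0278) also fell under 0.05 but were not called, Clpx for missing that minimum and Gm35986 because its lowest time was at 0 and gave no fold. Against Control the pattern differed for 3 of the 7 genes and for 0.188% of all genes, all of which had the smaller amplitude in RevScapTKO. Since the genes were chosen on the daily pattern of the same Control libraries, this count describes them and is no independent result. The difference in amplitude was -2.654 for Loxl4 (SE 0.47, limma adjusted p = 6.81e-05), -1.60 for Ddc (SE 0.29, adjusted p = 0.000347) and -1.475 for Clpx (SE 0.37, adjusted p = 0.012). The call for Clpx was lost without the RevScapTKO ZT10 replicate 1 library, at a limma adjusted p of 0.0629, when RevDKO was kept out of the fit, at 0.0941, and with no filter on low values, at 0.0547. Between RevScapTKO and RevDKO no gene of the 13326 had a changed pattern after adjustment (0%), although 674 had an unadjusted p under 0.05, among them Crybg2 and Gm35986, and the adjusted p of the pair was 0.74 and 0.921.

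**Figure D3:**
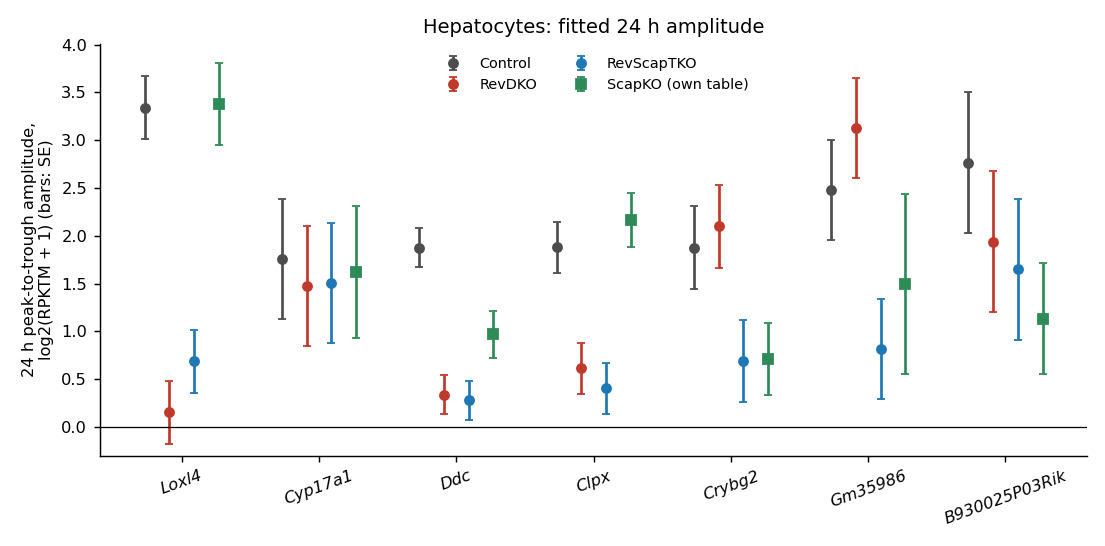
Peak-to-trough amplitude of the fitted 24 h curve, on log2(RPKTM + 1), with SE bars, for each gene in hepatocytes of the 4 genotypes. ScapKO (squares) comes from a table normalized on its own. Loxl4 reads 3.34 in Control and 3.38 in ScapKO, and 0.16 and 0.69 in RevDKO and RevScapTKO.

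ScapKO hepatocytes keep both REV-ERBs, and their 12 libraries were normalized in a table of their own, so that they were tested within themselves alone. The sample titles call them hepatocytes while the cell type field of the labels reads liver macrophage, and the titles were followed, as hepatocyte markers summed to 496312 to 1420732 RPKTM and macrophage markers to 541 to 3713. Loxl4 read 63.3, 22.8 and 45.6 RPKTM at ZT4, 18.4, 12 and 14.8 at ZT10, 36.3, 24.7 and 47.2 at ZT16, and 145, 294 and 102 at ZT22. Clpx read 1693, 753 and 895 at ZT4, 348, 432 and 452 at ZT10, 1616, 918 and 825 at ZT16, and 2031, 1730.1 and 1750.1 at ZT22. Both were lowest at ZT10 and highest at ZT22, as in Control. Their 24 h pattern was called, with amplitudes of 3.38 for Loxl4 (SE 0.43, limma adjusted p = 0.0036, peak at ZT22.2) and 2.16 for Clpx (SE 0.28, adjusted p = 0.0036, peak at ZT21.9). These were 2 of the 7 genes, against 1.85% of all 12724 genes tested.

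For the other five ScapKO genes limma called no pattern. The exact test of JTK_CYCLE also called Cyp17a1 and Ddc, each at a p adjusted over the patterns tried of 0.0286, or of 0.000308 with the series entered 2 times, and with that also B930025P03Rik, at 0.0408. Ddc read 317, 235 and 278 RPKTM at ZT4, 190.0, 296 and 211 at ZT10, 449.9, 321 and 245 at ZT16, and 442, 347 and 541 at ZT22, with an amplitude of 0.97 (limma adjusted p = 0.12). The transcript that read highest for Ddc in this table starts at 11790411 in place of 11798147. Crybg2 read 19.1 to 48.4, Gm35986 0 to 11 and B930025P03Rik 2.44 to 15.9. Cyp17a1 read 8.54 to 48.4 in 11 libraries and 252 in ZT22 replicate 2, the hepatocyte library that stood apart, with macrophage markers summing to 3713 RPKTM against 541 to 1594 in the others and Scap at 1006 against 205 to 379.6. Without that library Loxl4 had an amplitude of 2.95 (limma adjusted p = 0.00169), Clpx 2.21 (0.00161) and Ddc 1.13 (0.0283), so that 3 genes were called. With no filter on low values 0 of the 7 were called, Loxl4 and Clpx having limma adjusted p of 0.0702 and 0.0809.

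**Figure D4:**
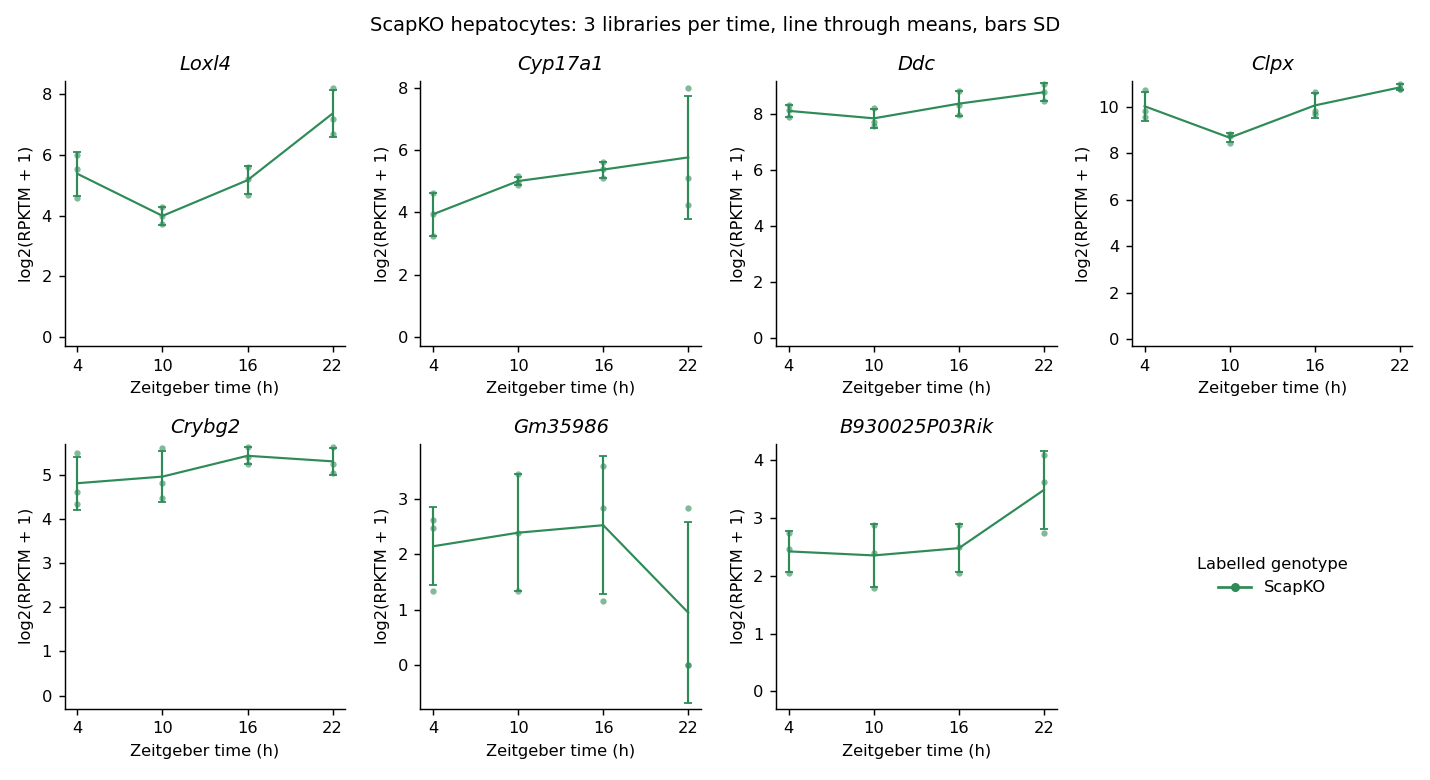
ScapKO hepatocyte level of each gene, as log2(RPKTM + 1), against zeitgeber time in hours, with 3 libraries per time as points, a line through the means and SD bars. Loxl4 and Clpx are lowest at ZT10 and highest at ZT22, and 1 ZT22 library lifts the Cyp17a1 mean.

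The liver macrophage libraries were not used to choose the genes but held hepatocyte RNA, whose part in their calls was not tested. Their calls are therefore not independent of the hepatocyte values that chose the genes. In these libraries, 4 of the 6 genes tested were higher in RevDKO than in Control, where 0.574% of the 13947 genes tested differed. They were Loxl4 (3.41, limma adjusted p = 1.00e-11), Cyp17a1 (3.19, adjusted p = 2.51e-05), B930025P03Rik (2.11, adjusted p = 0.0247) and Clpx (0.98, adjusted p = 0.00329). Ddc had 0.82 (adjusted p = 0.21) and Crybg2 0.47 (adjusted p = 0.523) in the limma fit, and Gm35986 did not pass the filter on low values. B930025P03Rik passed it through the deletion genotypes alone, with 1 Control library over 5 RPKTM, so that its call is no support, and its difference was 0.71 with a pseudocount of 10 and 3.77 with 0.1. For Loxl4 the 12 RevDKO libraries lay above the 12 Control libraries, as they did for 0.0215% of all genes.

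Loxl4 in Control macrophages read 10.3, 15.6 and 21.9 RPKTM at ZT4, 4.14, 4.19 and 11.3 at ZT10, 9.16, 18.3 and 28.4 at ZT16, and 17.5, 46.8 and 79.6 at ZT22. In RevDKO it read 126, 161 and 218 at ZT4, 281, 166 and 131 at ZT10, 204, 131 and 249 at ZT16, and 246, 164 and 153 at ZT22. The Control libraries repeated the hepatocyte order of times, lowest at ZT10 and highest at ZT22, at a lower level. Its Control amplitude was 2.59 (SE 0.47, limma adjusted p = 0.0407, peak at ZT21.8), where 0.0502% of all genes were called, and in RevDKO it was 0.20 (adjusted p = 0.959). The change of pattern itself was not called for any of the 6 genes or of all 13947 (0%), although 767 genes had an unadjusted p under 0.05, Loxl4 among them.

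Cyp17a1 in RevDKO macrophages read higher at each later time, from 14.9, 44.6 and 42.4 RPKTM at ZT4 to 132, 86.7 and 87.9 at ZT10, 234, 234 and 295 at ZT16, and 372, 717 and 225 at ZT22. In Control it read 0 to 23.5 at ZT4 and ZT10 and 6.99 to 70.1 at ZT16 and ZT22. The RevDKO pattern was called, with an amplitude of 3.59 (SE 0.85, limma adjusted p = 0.0422, peak at ZT18.2), where 2.53% of all genes were. The amplitude was 2.46 in Control (peak at ZT18.4) and 2.95 in RevScapTKO (peak at ZT16.6), with the same SE. Neither was called (limma adjusted p = 0.519 and 0.617, unadjusted 0.0238 and 0.00584), where 0.0502% and 0.0789% of all genes were. The change of pattern from Control to RevDKO was not called either (limma adjusted p = 0.918). In RevScapTKO macrophages Cyp17a1 read 1.96 to 148, and the fall from RevDKO, of 2.16 (SE 0.42, limma adjusted p = 0.00161), was the single call among the 6 genes where 3% of all genes were called. Of 13 hepatocyte markers 2 were lower and 0 higher in the same comparison (1 higher at an unadjusted p under 0.05), with a median of -0.23, and their part in the fall was not tested. For Loxl4 the 95% interval of the RevScapTKO minus RevDKO difference ran from -0.84 to 0.11 (limma adjusted p = 0.444). 0 of the 6 genes tested had a pattern called by limma in RevScapTKO macrophages (0.0789% of all genes).

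B930025P03Rik was listed at 0 in 8 of the 12 Control macrophage libraries and read at most 7.66 RPKTM in the rest, against 0 to 43.2 in RevDKO. Clpx averaged 77.1 RPKTM ± 40.1 (SD, n = 12) in Control and 148 ± 49.9 in RevDKO, with ranges of 41.9 to 182 and 71.5 to 231 that overlapped. In ScapKO macrophages Loxl4 read 16.5 to 44.8 except for 227 in ZT22 replicate 2, where macrophage markers summed to 24574 RPKTM against 89689 to 150099 in the others, and no gene of the 13930 tested in that table had a 24 h pattern called by limma (0%), with 1412 at an unadjusted p under 0.05.

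Hepatocyte RNA was present in the macrophage libraries. The hepatocyte markers stood at a median of 18% (range over markers 10.2 to 63.8) of their hepatocyte level in Control, 16.7% (10.5 to 23.9) in RevDKO and 15.3% (7.47 to 23.8) in RevScapTKO, set across separately normalized tables. In RevDKO the same ratio was 26.2% for Loxl4, 29.3% for Cyp17a1, 15.3% for Clpx, 14.7% for Ddc and 11.7% for B930025P03Rik, and 148% for Crybg2. Of 13 hepatocyte markers tested, limma called 0 between RevDKO and Control macrophages (median difference 0.27), with 5 at an unadjusted p under 0.05, 4 of them higher. Macrophage markers had a median difference of -0.54 (0 of 12 called, 1 unadjusted). Their summed level had a median of 19791 RPKTM in Control (range 3593 to 42103) and 9968 in RevDKO (4284 to 35012). With the mean level of the hepatocyte markers as a covariate, the count of genes called stayed at 4. This covariate follows the amount of hepatocyte RNA and cannot take out a gene that itself differs between the hepatocyte genotypes. The part of hepatocyte RNA in the macrophage values of these genes was not tested. Without the 3 libraries of high Alb, a set left out after seeing the data, 3 genes were called and B930025P03Rik had a limma adjusted p of 0.0693. Its call was also lost without any single one of 6 libraries (Control ZT4 replicate 1 and ZT10 replicate 2, and RevDKO ZT4 replicate 3, ZT10 replicate 1, ZT16 replicate 2 and ZT22 replicate 2), at 0.0526 to 0.0695, and with no filter on low values, at 0.111.

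**Figure D5:**
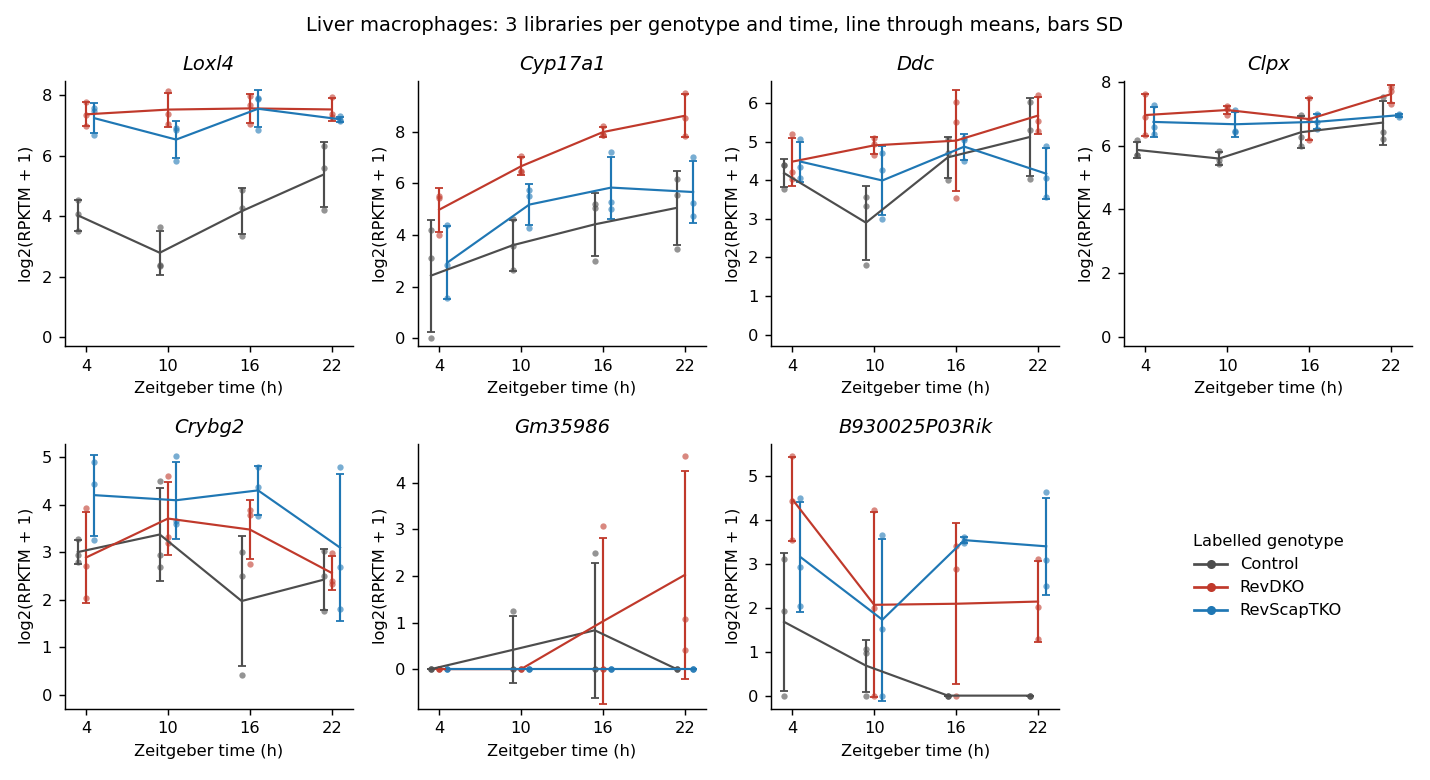
Liver macrophage level of each gene, as log2(RPKTM + 1), against zeitgeber time in hours, with 3 libraries per genotype and time as points, a line through the means and SD bars. Loxl4 is high in RevDKO and RevScapTKO at all times, and Cyp17a1 climbs to 225 to 717 RPKTM at ZT22 in RevDKO.

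In the comparison of RevScapTKO with RevDKO hepatocytes the pathway calls described here, 17 in all, were 4 with the macrophage marker covariate. The genes were taken from lists of pathway members chosen with earlier results of these data known, and no list was tested as a set. Of 19 clock genes tested in hepatocytes, 7 were higher and 1 was lower in RevDKO than in Control, with the activators Npas2 (4.12) and Arntl (1.83) and the repressor Nr1d1 (1.55) leading. 4 had a smaller amplitude, Npas2 (-4.14), Arntl (-4.04), Cry1 (-2.42) and Nfil3 (-1.01). The median difference of the list was 0.38, against -0.01 over all genes. Nr1d1 is itself a deleted gene, and its values here and below cover the whole transcript and not the deleted part alone. Between RevScapTKO and RevDKO none of the 19 was higher and 2 were lower, the repressor Bhlhe40 (-1.06) and the output factor Hlf (-0.43). Against Control, RevScapTKO had 8 higher, led by Npas2 (3.54), Nr1d1 (1.79) and Arntl (1.60), and 4 lower, among them Bhlhe40 (-1.35) and Per2 (-0.58), and 5 had a smaller amplitude, led by Npas2 (-4.89), Nr1d1 (-4.39) and Arntl (-4.04). In ScapKO hepatocytes 13 of the 19 had a 24 h pattern. In macrophages Npas2 (3.39), Nfil3 (1.79) and Cry1 (1.35) were higher in RevDKO than in Control and 0 were lower.

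Of 15 other genes of steroid metabolism tested, 0 were higher in RevDKO than in Control hepatocytes (0 at an unadjusted p under 0.05) and 3 were lower, the reductase Srd5a1 (-0.87) and the dehydrogenases Hsd17b11 (-0.54) and Hsd17b4 (-0.39). In RevScapTKO against RevDKO 7 were lower, led by Srd5a1 (-0.89), Hsd3b3 (-0.79) and Hsd3b2 (-0.74), and against Control 10 were lower and none higher, led by Srd5a1 (-1.76), Hsd3b2 (-1.17) and Hsd3b3 (-1.01). The median differences were -0.36, -0.35 and -0.64, against -0.01, -0.03 and -0.04 over all genes. The Hsd3b genes have near-identical copies between which reads can be split, so that their values are uncertain.

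Around Ddc, 0 of 10 genes of aromatic amine metabolism were called by limma between RevDKO and Control, with 6 at an unadjusted p under 0.05. In RevScapTKO against RevDKO 3 were lower, among them the biopterin enzymes Qdpr (-1.23) and Gch1 (-0.59), and against Control 4 were lower, led by Qdpr (-0.82), Gch1 (-0.72) and Pcbd1 (-0.62). Around Clpx, 17 mitochondrial protease and heme synthesis genes were tested, of which Uros (0.73) and Ppox (0.36) were higher and Alad (-0.48) and Cpox (-0.37) lower in RevDKO than in Control. In RevScapTKO against RevDKO Alas1, the first and rate-limiting enzyme of heme synthesis, was higher (1.06), and 3 genes were lower, among them the ClpX partner Clpp (-0.41) and Urod (-0.31). Of the lysyl oxidase family 2 of 4 genes passed the filter, and Loxl2 was higher in RevScapTKO than in RevDKO (0.69) and Control (0.84), in the comparison in which stellate cell markers were higher too. Of the 2 crystallin genes tested 0 were called in these comparisons, with 1 at an unadjusted p under 0.05 in RevScapTKO against RevDKO and 1 in RevDKO against Control.

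As a description of likeness over the 12 group means of log2(RPKTM + 1) in hepatocytes, which share libraries, the genes nearest to Loxl4 by Pearson correlation were Npas2 (0.964), Chic1 (0.955) and 1700010I14Rik (0.947). Those nearest to Ddc were Arntl (0.945), Mical2 (0.931) and Gldc (0.923), and those nearest to Clpx were Dnmt3b (0.951), Arntl (0.936) and Hoxb4 (0.928). Ddc and Clpx had 0.943 with each other, and Loxl4 and Clpx 0.817. Cyp17a1 was nearest to Cyp2c68 (0.922), Apoh (0.907) and Slc13a2os (0.884), B930025P03Rik to Pyroxd2 (0.942), Uros (0.935) and Snx29 (0.925), Crybg2 to Rnd3 (0.880), Epha1 (0.870) and Peg3os (0.850), and Gm35986 to genes that included Slc2a4 (0.950) and A330041J22Rik (0.937). Gm35986 and Loxl4 stood at -0.479. The Control and RevDKO means among the 12 were used to choose the genes, so that likeness to the clock genes Npas2 and Arntl is no independent result.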

How the data were processed

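RNA-Seq libraries of hepatocytes and liver macrophages were prepared from rRNA-depleted total RNA. The authors aligned reads to mm9 with STAR, counted them over RefSeq transcripts with HOMER, and deposited RPKM-type values (RPKTM, equal to 10 times the RPKM), quantile normalized within each of 4 tables. Versions are not given in the sources used here. Quantile normalization gives each library of a table the same set of values, so depth is unknown, values of separate tables were not tested against each other, and no count test was applied.

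From the deposited values, log2(RPKTM + 1) was analysed with limma 3.58.1 (trend) in R 4.3.3, with 1 mean per genotype and time over the 36 libraries of a table (12 for ScapKO), 1 transcript per gene (the highest mean) and genes over 5 RPKTM in at least 3 libraries. Differences of the mean over 4 times and moderated F tests of 24 h cosine and sine terms were adjusted (Benjamini-Hochberg) over all genes tested, threshold 0.05. The tests were checked on simulated data. The 7 genes were given, and the members, pathway lists and markers were chosen with earlier results of these data known. All 7 were named, with the 3 pathway genes of largest change per direction past the threshold and the 3 genes of highest correlation over the group means. Some genes that this rule names are not reported here. Alternatives were the pseudocount (0.1, 10), no filter, all transcripts, fewer genotypes in the fit, a replicate block, a marker covariate, JTK_CYCLE and leaving out each library. Tables were handled in pandas 2.3.3 and numpy 2.4.6 under Python 3.11.15, and plots drawn in matplotlib 3.10.9.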

Additional observations from a re-analysis of the deposited data

How the results depend on the processing

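Without depth, no counting error can be given, and 3 libraries per group limit small differences. In RevScapTKO against RevDKO hepatocytes the count of the 7 genes called was 4, and 2 with the macrophage marker covariate, under which the pathway genes called fell from 17 to 4. For ScapKO hepatocytes the count was 2, and 0 with no filter, 5 by JTK_CYCLE with the series entered 2 times and 4 with it entered once. For a pattern within RevScapTKO hepatocytes it was 0, and 1 by either JTK_CYCLE. The amplitude difference of B930025P03Rik between RevDKO and Control was -0.83, and 0.38 with a pseudocount of 10. The causes of these shifts were not tested. Over fits leaving out each library, the counts were 4 to 4 (RevScapTKO against RevDKO) and 7 to 7 (against Control), 0 to 0 and 2 to 3 for the corresponding changes of pattern, and 0 to 0 for a pattern within RevScapTKO. In macrophages they were 3 to 4 (RevDKO against Control), 1 to 1 (RevScapTKO against RevDKO) and 0 to 0 (change of pattern). For ScapKO they were 2 to 3, and 3 to 3 genes differed by more than 1 between RevDKO and Control. Pathway genes called were 13 to 22 for RevScapTKO against RevDKO, and 11 to 16 and, for the pattern, 3 to 6 for RevDKO against Control. Of all counts of genes under an alternative, 378 lay within 1.5 times the reported count, 4 above and 3 below.

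Deviations of same-numbered libraries had a median correlation of 0.0191 in hepatocytes, 0.0829 in macrophages and 0.0132 in ScapKO hepatocytes (other numbers -0.0107 and -0.0399 in the first and second), and 45 of 198, 85 of 198 and 4 of 18 pairs exceeded 0.1. Since not every pair did, the numbers were not taken to pair the samples. With the replicate number as a block the counts were 4, 7, 0, 0 and 3 for the hepatocyte comparisons, 4, 1 and 0 for macrophages and 2 for ScapKO, and no count of the 7 genes moved. The pathway counts were 19 for RevScapTKO against RevDKO, and 15 and 3 for the level and the pattern of RevDKO against Control.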
